A study of Danio rerio with 36 samples.

Results

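The AP-1 transcription factors are basic leucine zipper proteins that bind DNA as dimers. Fos proteins need a Jun partner, while Jun proteins can also pair with each other or with ATF proteins such as Atf3. Many AP-1 genes are immediate early genes, switched on by stress and mitogen kinases without new protein synthesis, and in the zebrafish fin the junb genes and AP-1 bound enhancers are known from work on regeneration. The 10 genes described here were chosen by symbol, with earlier results of these data known. All 10 were found, each in a single row, among the 30221 genes of the table. They are the Fos genes fosaa, fosab, fosb, fosl1a and fosl2, the Jun genes jun, junba, junbb and jund, and atf3. All 10 were among the 20120 genes tested.

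RNA was taken from whole wild-type zebrafish larvae in 12 groups of 3 libraries. From 6 h after fertilisation the larvae were kept in 222 mM glucose, in 130 mM glucose or in regular medium, and after 14 days of exposure the caudal fin was amputated beyond the end of the spinal cord. In each medium larvae were sampled 3, 24 or 48 h after amputation, and uncut larvae were the reference. The higher dose is in mM in the sample labels and in nM once in the design text, and mM is used here. Each medium has 1 uncut group of unstated age, so amputation and the time that passed cannot be told apart. No osmotic control was analysed here. The labels do not say whether replicates were separate clutches or dishes, so p-values reflect the spread among the deposited samples only, and that spread may be technical.

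On GRCz11, fosaa lies at chr17:50228998-50234004 on the minus strand and fosl2 at chr17:41302660-41318547 on the plus strand. On chromosome 20 are fosab (chr20:46552311-46554440, minus), jun (chr20:15552657-15554606, plus) and atf3 (chr20:37794633-37800737, plus). The other Fos genes are fosb (chr18:36769758-36774965, plus) and fosl1a (chr14:30739476-30747686, minus). The other Jun genes are junba (chr1:51732979-51734535, minus), junbb (chr3:7654655-7656059, minus) and jund (chr2:56125174-56131312, minus). The span of fosab overlaps 2 genes on the opposite strand, and the strand setting of the counting is not given in the sources used here, so its reads may be shared with them. The pairs fosaa and fosab, and junba and junbb, are duplicates of 1 ancestral gene each, and reads from stretches they share could be split between them.

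Libraries held 47904694 to 67514889 counts, and no library was a copy of another of its own group. Copies between groups were not looked for. In 4 groups 1 library correlated with its 2 mates less well than the mates did with each other, by over 0.02 in the mean r over all tested genes. Among uncut larvae these were the 3rd replicates of 222 mM glucose (r = 0.954, beside 0.980 between its mates) and of regular medium (0.937, beside 0.986). Among cut larvae they were the 1st replicates of 130 mM glucose at 24 h (0.96, beside 0.982) and of regular medium at 3 h (0.954, beside 0.984). Some of these libraries were high or low for most AP-1 members together. Regular medium replicate 1 at 3 h had the highest level of its group in 9 of 10 members, all but jun, against 44.5% of all tested genes. The 130 mM glucose replicate 1 at 24 h was the highest for 10 of 10, against 38.1% of tested genes. Replicate 3 of uncut larvae in regular medium was the lowest for 8 members, all but jun and atf3, against 43.4% of tested genes. Replicate 3 of 222 mM glucose at 3 h was the lowest for 9 of 10, all but jun, against 37.7% of tested genes. It also correlated less well with its mates (r = 0.960, beside 0.972 between them), but by less than 0.02. Calls that change without these libraries are given with and without them. Leaving out a library that was the lowest or highest for a member shifts that group mean up or down by itself. Shares of all tested genes beside member counts are those of the fit of all libraries. Other fits can change these shares too, so member counts from other fits are not set against them. Without the share in its own fit, such a count does not show whether members moved more than other genes.

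Levels below are CPM, counts scaled to library size with TMM factors. 9 of the 10 members had their highest group mean at 3 h in 222 mM glucose, and fosab had it in uncut larvae in regular medium. Between the highest and lowest group mean the widest spans were those of fosb, 27.2-fold, and fosl1a, 20.8-fold. Both encode Fos proteins that are nearly silent in many resting tissues. The narrowest were those of jund, 1.89-fold, a Jun protein with steady expression in most tissues, and jun, 2.27-fold. The groups explained 53.1% (jund) to 77.7% (junbb) of a member's variance over the 36 libraries on the log2 scale. These shares are not corrected for the number of groups, which raises them even where groups do not differ. No such share for all tested genes is given here.

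**Figure D1:**
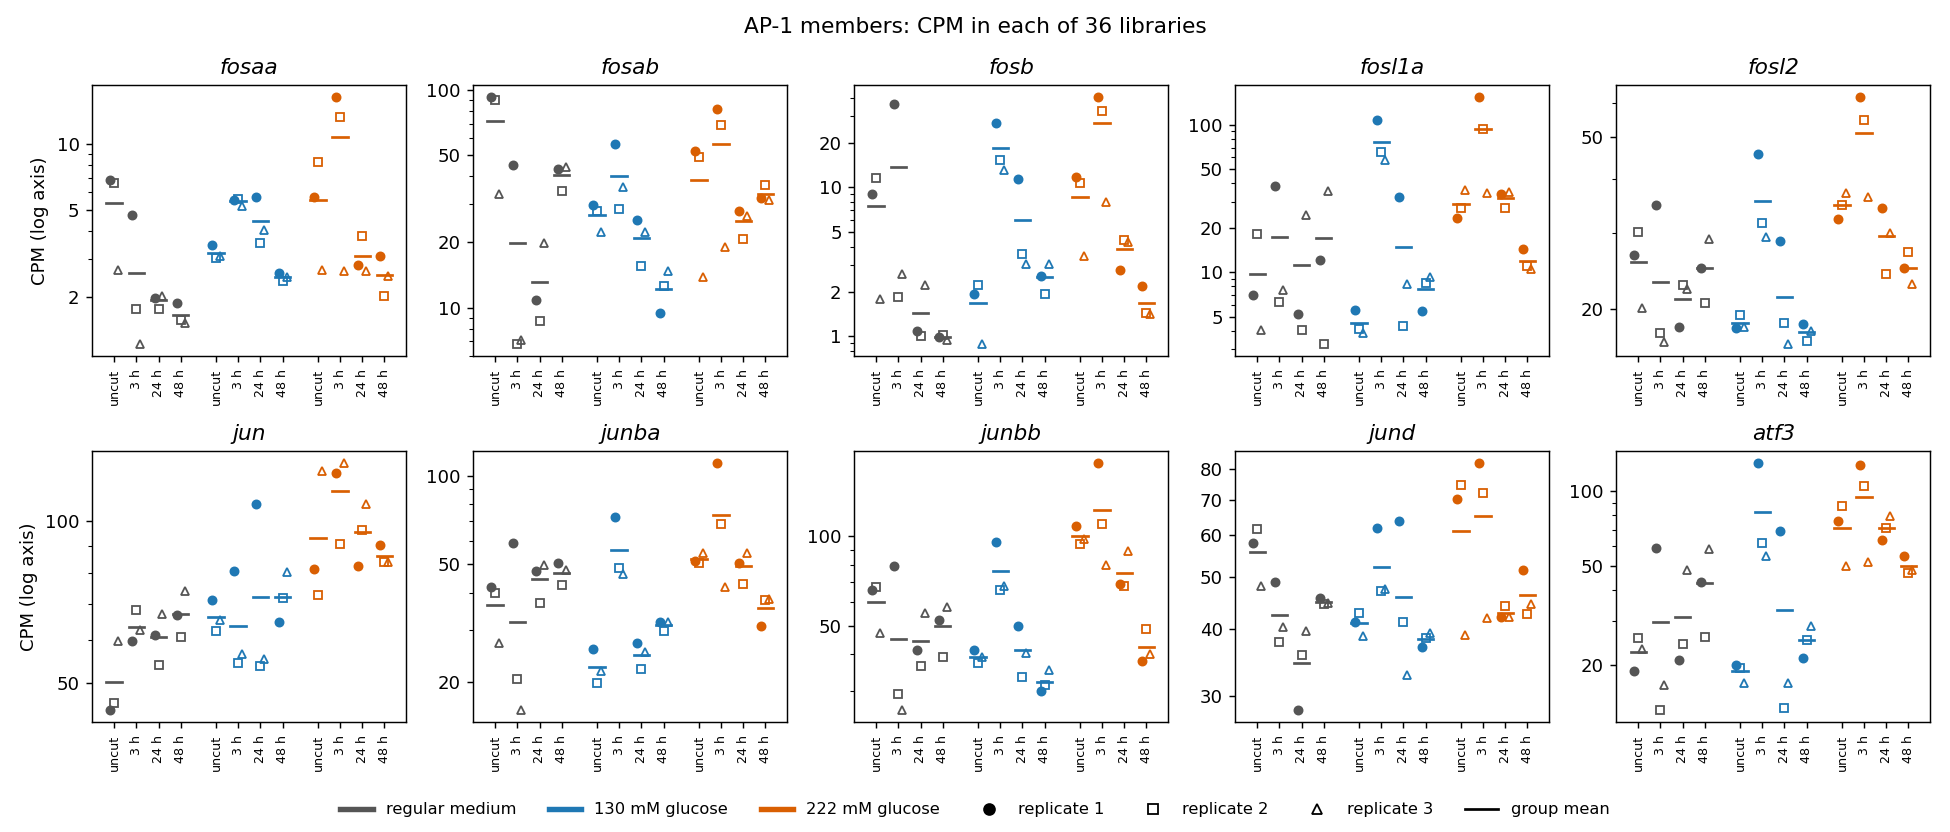
CPM (log axis, a scale of its own for each gene) of the 10 AP-1 members in 36 libraries, by medium (colour) and by time after amputation (x axis), with replicates 1, 2 and 3 as different symbols and group means as lines. Regular medium replicate 1 at 3 h sits far above its mates for most members, and fosl1a at 3 h in 130 mM glucose sits at 58.0 to 107 CPM, above 3.88 to 5.54 CPM in the uncut larvae of that medium.

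Ordered by group mean, fosl1a stood at 93.8 ± 59.5 CPM at 3 h in 222 mM glucose and at 76.9 ± 26.6 CPM at 3 h in 130 mM glucose (SD, n = 3 each). The next were 24 h and uncut in 222 mM glucose at 32.0 ± 4.10 and 28.8 ± 6.42 CPM, and the lowest was uncut in 130 mM glucose at 4.52 ± 0.895 CPM. Only the step from 130 mM glucose at 3 h to 222 mM glucose at 24 h separated neighbours in this order whose libraries did not overlap.

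Neighbours overlapped in 9 of the 11 steps of the order for fosaa and junbb, in 10 for fosab, fosl1a, jun, junba and jund, and in all 11 for fosb, fosl2 and atf3. Only neighbours were compared, so a separated step does not set all groups above it apart from all below. For jun the 4 groups in 222 mM glucose had the 4 highest means, at 86.0 ± 3.75 to 113.9 ± 20.3 CPM. The step that separated lay between 48 h in 222 mM glucose and 48 h in 130 mM glucose (72.4 ± 7.80 CPM). Other libraries overlapped across it, with uncut in 222 mM glucose down to 73.0 CPM and 130 mM glucose at 24 h up to 107.7 CPM. The lowest mean was uncut in regular medium, at 50.2 ± 8.48 CPM. For junbb 1 separated step lay between 222 mM glucose at 24 h (75.3 ± 11.8 CPM, the 4th highest) and uncut in regular medium (60.2 ± 11.2 CPM). The other lay between uncut in 130 mM glucose (39.3 ± 2.06 CPM) and 130 mM glucose at 48 h (32.3 ± 2.70 CPM, the lowest). Libraries of regular medium at 3 h, at 26.0 to 79.3 CPM, reached across both steps.

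At 3 h after amputation in 130 mM glucose 6 of the 10 members rose, and none fell, at an adjusted p under 0.05, in a comparison in which 38.2% of all tested genes passed and 20.9% passed as higher. They were fosb, fosl1a, fosl2, junba, junbb and atf3. The median log2 change was 0.95 over the 10 members and 0.01 over all tested genes. The 3 libraries of each group did not overlap for 8 of 10 members, against 59.6% of tested genes. These are bulk samples of whole larvae, in which more cells of a type cannot be told apart from more RNA per cell.

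Among the Fos genes, fosl1a, which encodes a Fos protein without the strong activation domain of c-Fos, had 107, 65.3 and 58.0 CPM at 3 h and 5.54, 4.13 and 3.88 CPM in uncut larvae. Every 3 h library was far above every uncut one, and the log2 change was 4.09 ± 0.91 (SE; 17-fold, adjusted p = 0.00119). For fosb, a Fos gene known as an immediate early gene, the values were 26.9, 15.2 and 13.1 CPM at 3 h and 1.91, 2.22 and 0.892 CPM in uncut larvae. It rose by 3.46 ± 0.88 on the log2 scale (11-fold, adjusted p = 0.00361). For fosl2, which encodes a Fos protein linked in mammals to the skin and extracellular matrix, the values were 45.7, 31.6 and 29.3 CPM at 3 h and 18.1, 19.4 and 18.2 CPM in uncut larvae. It rose by 0.94 ± 0.23 (1.92-fold, adjusted p = 0.00236). The fos duplicates did not pass. For fosaa the log2 change was 0.78 ± 0.45 (adjusted p = 0.18), with 5.57, 5.60 and 5.20 CPM at 3 h and 3.46, 3.03 and 3.06 CPM in uncut larvae. For fosab it was 0.60 ± 0.58 (adjusted p = 0.435), and the groups overlapped.

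Both junb genes, which encode Jun proteins known from work on zebrafish fin regeneration, rose. For junba the values were 72.7, 48.5 and 46.2 CPM at 3 h and 25.9, 19.8 and 21.8 CPM in uncut larvae, a log2 change of 1.31 ± 0.32 (2.48-fold, adjusted p = 0.00247). For junbb they were 95.7, 65.8 and 67.8 CPM at 3 h and 41.4, 37.3 and 39.2 CPM in uncut larvae, a change of 0.96 ± 0.30 (1.94-fold, adjusted p = 0.0121). In contrast jun, the c-Jun gene, had 80.6, 54.4 and 56.6 CPM at 3 h and 71.2, 62.5 and 65.6 CPM in uncut larvae. Its groups overlapped and the change was -0.06 ± 0.21 (adjusted p = 0.85). For jund it was 0.35 ± 0.21 (adjusted p = 0.204).

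Stress-inducible atf3 had 129.7, 61.9 and 54.9 CPM at 3 h and 20.0, 19.5 and 16.9 CPM in uncut larvae. It rose by 2.13 ± 0.55 (4.37-fold, adjusted p = 0.00384). Replicate 1 was the highest 3 h library for 9 of 10 members, all but fosaa, against 39.6% of tested genes. Without it the call of junbb was lost (0.77, adjusted p = 0.073), and the other 5 calls were kept with each of the 6 libraries left out in turn. The summed CPM of 5 neutrophil markers was 1501 to 2070 at 3 h and 1388 to 2016 in uncut larvae, and that of 5 epidermal markers 9671 to 11340 at 3 h and 8921 to 9928 in uncut larvae. The sum of 4 red cell markers, 2 of which were at 0 in some library, was 130.5 to 164.4 at 3 h and 59.4 to 63.7 in uncut larvae, that of 5 neuron markers 585.4 to 688.4 at 3 h and 848.1 to 927.7 in uncut larvae, and that of 4 macrophage markers 66.8 to 73.5 at 3 h and 74.9 to 79.1 in uncut larvae. The part of red cells, neurons and macrophages in these results was not tested.

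At 24 and 48 h in 130 mM glucose no member passed in edgeR, DESeq2 or limma, while 2.67% and 6.14% of tested genes did in edgeR. At an unadjusted p under 0.05 there was 1 member at 24 h (fosb, 1.85 ± 0.85) and 0 at 48 h. When the spread was estimated from the compared libraries alone, 5 members passed at 48 h and 0 at 24 h. The shares of all tested genes in those narrower fits are not given here. Replicate 1 at 24 h kept high levels, with 32.1 CPM for fosl1a, 69.5 CPM for atf3 and 107.7 CPM for jun. Its mates had 4.33 and 8.26 CPM for fosl1a, 13.4 and 16.9 CPM for atf3, and 53.7 and 55.5 CPM for jun.

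In regular medium the calls after amputation were all lower. At 3 h 1 of 10 members passed, at 24 h 3 and at 48 h 2, while 15.1%, 9.78% and 14.5% of all tested genes passed, 7.06%, 4.24% and 7.45% as lower. The members that fell were the Fos genes fosaa, fosab and fosb, and jund. At 3 h none of the 10 members had groups that did not overlap, against 25.2% of tested genes.

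At 3 h fosab, the duplicate that carried most Fos transcripts in uncut larvae, had 45.4, 6.82 and 7.12 CPM against 92.4, 90.2 and 33.4 CPM in uncut larvae. The range within each group was wide, and the fall of 1.87 ± 0.60 on the log2 scale (3.65-fold, adjusted p = 0.0352) ended at an adjusted p of 0.085 without uncut replicate 1 or 2, and at 0.143 and 0.128 without 3 h replicate 2 or 3. Replicate 1 at 3 h set the direction of several members. It had 36.5 CPM for fosb against 1.82 and 2.64 CPM in its mates, 38.2 CPM for fosl1a against 6.30 and 7.59 CPM, and 59.4 CPM for atf3 against 13.2 and 16.6 CPM. With it the log2 changes were 0.87 for fosb, 0.83 for fosl1a and 0.40 for atf3, with adjusted p of 0.489, 0.519 and 0.653. Without it they were -1.74, -0.48 and -0.60, also not passed, with adjusted p of 0.106, 0.759 and 0.487. The calls then became 4, all lower, for fosaa (-1.84, adjusted p = 0.0121), fosab (-3.37, 0.000536), junba (-1.0, 0.00908) and junbb (-1.12, 0.00302). Without all 4 libraries that stood apart, 7 members were lower (fosaa, fosab, fosb, fosl2, junba, junbb and jund) and jun was higher (0.53, adjusted p = 0.0159). These libraries included uncut replicate 3, the lowest of its group for 8 members, and replicate 1 at 3 h, the highest for 9. For jun the first was the highest and the second the lowest. Leaving both out moves the changes in these directions by itself. The shares of all tested genes in these fits are not given here. The change of fosab kept its direction in all these fits, but its call was lost without uncut replicate 1 or 2 or 3 h replicate 2 or 3. The junb genes did not pass in the fit of all libraries, and passed in the fits above without replicate 1 at 3 h.

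At 24 h in regular medium fosab had 10.9, 8.66 and 19.8 CPM, each below all 3 uncut libraries, and fell by 2.46 ± 0.61 (5.49-fold, adjusted p = 0.0133). For fosaa the values were 1.99, 1.77 and 2.04 CPM against 6.86, 6.62 and 2.65 CPM in uncut larvae, a fall of 1.48 ± 0.47 (2.78-fold, adjusted p = 0.0417). For jund they were 28.2, 35.7 and 39.6 CPM against 58.0, 61.6 and 48.1 CPM, and it fell by 0.70 ± 0.22 (1.62-fold, adjusted p = 0.0388). None of these groups overlapped. The call of fosab was lost without 24 h replicate 1 (-2.34, adjusted p = 0.068) or 2 (-2.23, 0.061). Those of fosaa and jund were lost with any library but uncut replicate 3 left out, at adjusted p of 0.105 to 0.128 and 0.056 to 0.179.

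By 48 h fosab stood at 43.5, 34.2 and 44.0 CPM, which overlapped the uncut libraries, with a change of -0.83 ± 0.58 (adjusted p = 0.358). At 48 h fosaa and fosb lay below all uncut libraries. For fosaa the values were 1.87, 1.58 and 1.52 CPM, a fall of 1.70 ± 0.47 (3.24-fold, adjusted p = 0.016). For fosb they were 0.995, 1.03 and 0.946 CPM against 8.99, 11.6 and 1.77 CPM in uncut larvae, a fall of 2.91 ± 0.89 (7.52-fold, adjusted p = 0.0292). The fosaa call held without uncut replicate 3 or 48 h replicate 1, and was lost without uncut replicate 1 (-1.48, adjusted p = 0.081) or 2 (-1.52, 0.081) and without 48 h replicate 2 (-1.66, 0.057) or 3 (-1.64, 0.068). The fosb call held only without uncut replicate 3, and was lost with each of the other 5 left out, at adjusted p of 0.085 to 0.136. The summed neutrophil markers in regular medium were 1094 to 2006 CPM at 3 h, 1734 to 2375 at 24 h and 590.7 to 729.8 at 48 h, and 700.6 to 1525 CPM in uncut larvae. Macrophage markers summed to 67.4 to 80.9 CPM at 3 h, 125.9 to 133.2 at 24 h and 109.5 to 116.3 at 48 h, and to 65.9 to 72.5 CPM in uncut larvae. The neuron markers summed to 593.1 to 655 CPM at 3 h and 739.9 to 986.5 CPM in uncut larvae, and the red cell markers to 101.6 to 164.9 CPM at 3 h and 20.6 to 86.8 CPM in uncut larvae. At 48 h fast muscle markers summed to 19210 to 21740 CPM, against 9232 to 14960 CPM in uncut larvae. The part of these cell types in the results was not tested. With the spread estimated from the compared libraries alone, 1 call was left in regular medium (fosab at 24 h), against 6 in the fit of all libraries.

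In 222 mM glucose no member passed at 3 h in edgeR, DESeq2 or limma, against 0.895% of tested genes in edgeR, and 3 members had an unadjusted p under 0.05. All 10 changes were positive, with a median of 0.52 on the log2 scale (0.00 over all tested genes). The widest were those of fosl1a (1.71 ± 0.81, adjusted p = 0.339) and fosb (1.64 ± 0.81, adjusted p = 0.357). For fosl1a the uncut larvae of this medium had 23.4, 27.1 and 35.9 CPM, against 153.5, 93.4 and 34.6 CPM at 3 h. Replicate 3 at 3 h lay among the uncut libraries for fosl1a, fosb and atf3. With fosb it had 8.0 CPM beside 40.3 and 32.6 CPM in its mates, and the uncut libraries had 11.8, 10.7 and 3.44 CPM.

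In this comparison same-numbered libraries deviated together from their group means (r = 0.174, 0.152 and 0.389). It was the only comparison of 27 with every r over 0.1. The labels do not say that a replicate number marks a shared batch, so whether the samples were paired is not known. With the replicate number as a block and the compared libraries alone, fosb passed (1.53, adjusted p = 0.0146). With the block in the fit of all libraries it did not (1.59, adjusted p = 0.319). Without the 4 libraries that stood apart, jun (0.56, adjusted p = 0.00901) and fosl2 (0.60, adjusted p = 0.0218) passed. Among these 4 was uncut replicate 3, the highest of its group for both genes, so leaving it out raises both changes by itself.

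At 24 h no member passed against the uncut larvae of 222 mM glucose in edgeR, DESeq2 or limma (1 at an unadjusted p under 0.05), and 4.6% of tested genes did in edgeR. At 48 h 1 member passed, against 17.2% of tested genes (8.74% as lower). It was junbb, with 38.1, 48.7 and 40.1 CPM at 48 h against 108, 93.8 and 98.1 CPM in uncut larvae. The groups lay far apart, the fall was 1.24 ± 0.30 (2.37-fold, adjusted p = 0.00481), and it held with each library left out in turn. All 10 changes at 48 h were negative, with a median of -0.53 on the log2 scale. Without uncut replicate 3, 4 members passed as lower at 48 h (fosaa, fosb, jund and junbb), 1 at 24 h (jund) and 0 at 3 h. Without 3 h replicate 3, 1 member passed as higher at 3 h, fosaa. The shares of all tested genes in these fits with a library left out are not given here. Several marker sums moved with the call of junbb at 48 h. Those of neutrophils were 1169 to 1223 CPM at 48 h and 1495 to 1890 CPM in uncut larvae, and those of red cells 34.3 to 39.0 at 48 h and 66.0 to 75.6 in uncut larvae. Those of fast muscle were 16450 to 18140 CPM at 48 h and 11660 to 14190 CPM in uncut larvae, of macrophages 80.7 to 88.3 at 48 h and 60.8 to 68.8 in uncut larvae, and of neurons 869 to 916.3 at 48 h and 636.6 to 824.6 in uncut larvae. Their part in the result was not tested.

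**Figure D2:**
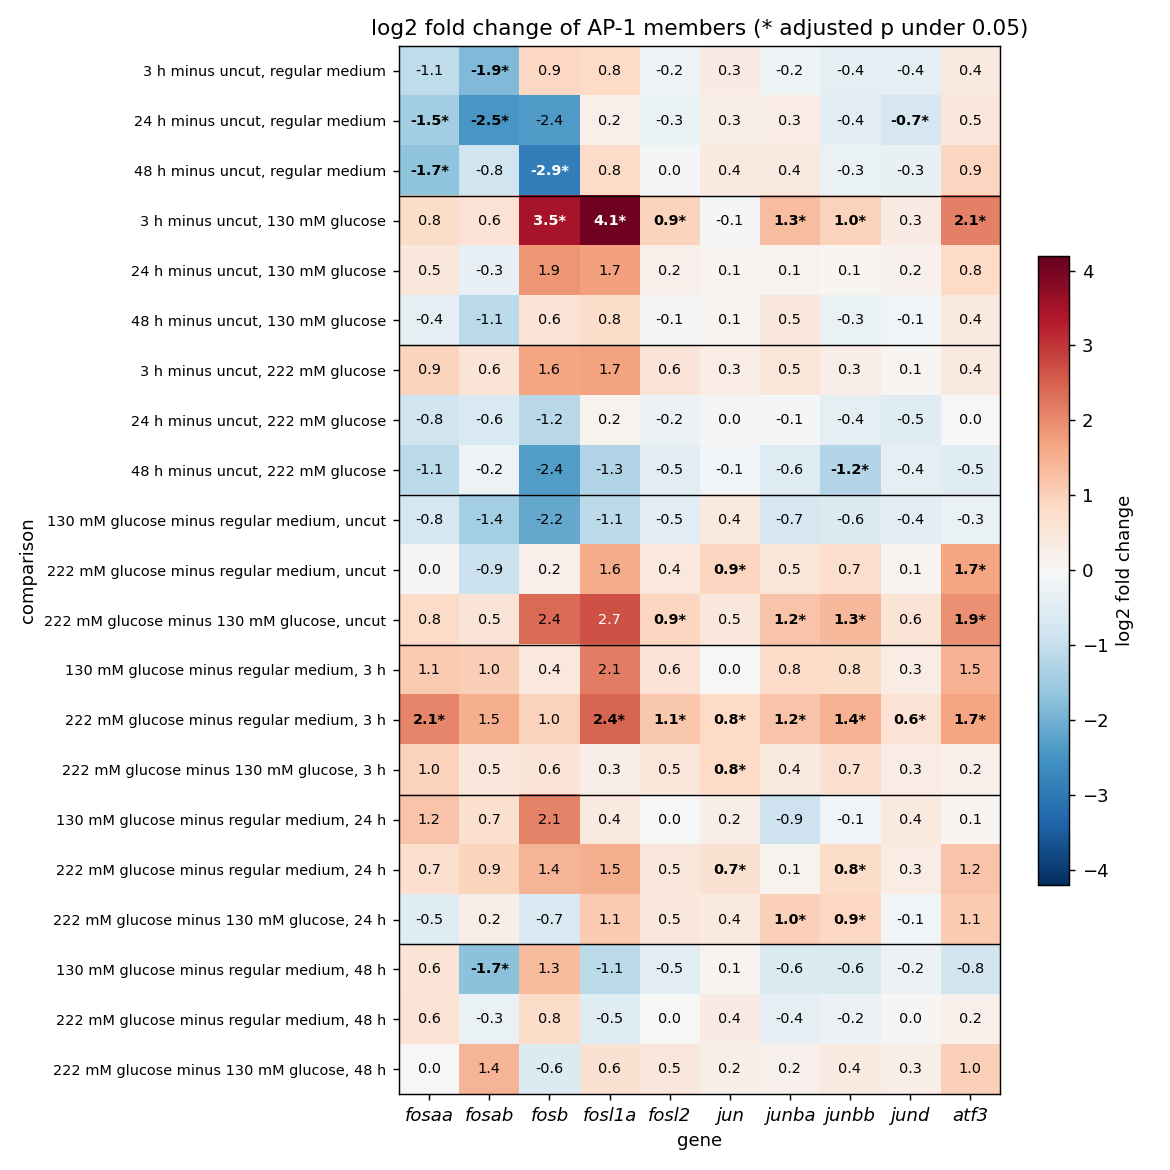
Log2 fold change of each member in 21 comparisons, 3 amputation comparisons in each medium and then 3 glucose comparisons in uncut larvae and at each time, with the first-named group over the second and asterisks at an adjusted p under 0.05. The red block at 3 h in 130 mM glucose holds 6 calls, the row of 222 mM glucose against regular medium at 3 h holds 8, and all 6 calls after amputation in regular medium are blue.

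Uncut larvae showed what glucose exposure alone went with. In 222 mM glucose against regular medium 2 of 10 members rose, jun and atf3, and 12.6% of all tested genes passed (5.69% as higher). The c-Jun gene jun had 81.5, 73.0 and 124 CPM in 222 mM glucose and 44.6, 45.9 and 59.9 CPM in regular medium. The groups did not overlap, and it rose by 0.89 ± 0.21 (1.85-fold, adjusted p = 0.00428), but without 222 mM replicate 3 the change was 0.62 and the adjusted p 0.052. For atf3 the values were 76.1, 87.3 and 49.9 CPM in 222 mM glucose and 18.9, 25.7 and 23.1 CPM in regular medium, a rise of 1.66 ± 0.54 (3.15-fold, adjusted p = 0.0441). This call held in 1 of 6 fits with a library left out, that without 222 mM replicate 3, and was lost at adjusted p of 0.068 to 0.149 in the other 5. With the spread estimated from the compared libraries alone neither passed (adjusted p = 0.167 for jun and 0.051 for atf3).

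In 222 mM against 130 mM glucose all 10 changes were positive in uncut larvae, and 4 members rose, against 7.63% of tested genes (4.65% as higher). They were fosl2, junba, junbb and atf3, and the median change of the 10 was 1.06 on the log2 scale. For junbb the values were 108, 93.8 and 98.1 CPM in 222 mM glucose and 41.4, 37.3 and 39.2 CPM in 130 mM glucose. It rose by 1.35 ± 0.30 (2.55-fold, adjusted p = 0.00581), in all 6 fits with a library left out and in all 10 other settings. For junba they were 51.4, 50.6 and 54.6 CPM against 25.9, 19.8 and 21.8 CPM, a rise of 1.21 ± 0.32 (2.32-fold, adjusted p = 0.0198).

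For fosl2 the uncut values were 32.3, 34.7 and 37.2 CPM in 222 mM glucose and 18.1, 19.4 and 18.2 CPM in 130 mM glucose, a rise of 0.91 ± 0.23 (1.87-fold, adjusted p = 0.0149). Expression of atf3 rose by 1.92 ± 0.55 (3.78-fold, adjusted p = 0.0308). The libraries of these 4 genes did not overlap between the groups, nor did those of 3 more members, 7 of 10 against 29% of tested genes. The calls of junba and fosl2 each held in 3 of 6 fits with a library left out. That of junba was lost without 130 mM replicate 2 (1.13, adjusted p = 0.093) or 3 (1.19, 0.079) or 222 mM replicate 3 (1.18, 0.058), and that of fosl2 without 130 mM replicate 1 (0.89, 0.054) or 3 (0.89, 0.064) or 222 mM replicate 3 (0.85, 0.056). The atf3 call held only without 222 mM replicate 3, when 3 members passed in all, atf3, jund and junbb. Against the larger fold of fosl1a, with 23.4, 27.1 and 35.9 CPM in 222 mM glucose and 5.54, 4.13 and 3.88 CPM in 130 mM glucose, stood a larger error (2.67 ± 0.86, adjusted p = 0.0557).

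In 130 mM glucose against regular medium no member passed in uncut larvae in edgeR, DESeq2 or limma, and 2.63% of all tested genes did in edgeR. At an unadjusted p under 0.05 there were 5 members, the groups did not overlap for 6 (17.7% of tested genes), and 9 of 10 changes were negative, the exception being jun (0.41 ± 0.21, adjusted p = 0.31). The widest was that of fosb (-2.15 ± 0.85, adjusted p = 0.187), with 1.91, 2.22 and 0.892 CPM in 130 mM glucose and 8.99, 11.6 and 1.77 CPM in regular medium. Without regular medium replicate 3, the lowest of its group here, fosab and fosb passed as lower. Without all 4 libraries that stood apart, 7 members were lower, among them fosab (-1.78, adjusted p = 0.00229) and fosb (-2.62, adjusted p = 0.000358), and jun was higher (0.55, adjusted p = 0.00551). Of these libraries only regular medium replicate 3 is in the compared groups. It was the lowest of its group for 8 members and the highest for jun. Leaving it out by itself moves the changes of those members down and that of jun up. The shares of all tested genes in these fits are not given here.

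The neutrophil markers of uncut larvae summed to 1495 to 1890 CPM in 222 mM glucose, 1388 to 2016 CPM in 130 mM glucose and 700.6 to 1525 CPM in regular medium. Fast muscle markers summed to 11660 to 14190 CPM in 222 mM glucose, 9680 to 9926 CPM in 130 mM glucose and 9232 to 14960 CPM in regular medium. Neuron markers summed to 636.6 to 824.6 CPM in 222 mM glucose, 848.1 to 927.7 CPM in 130 mM glucose and 739.9 to 986.5 CPM in regular medium. Macrophage markers summed to 60.8 to 68.8 CPM in 222 mM glucose, 74.9 to 79.1 CPM in 130 mM glucose and 65.9 to 72.5 CPM in regular medium. Red cell markers summed to 66.0 to 75.6 CPM in 222 mM glucose, 59.4 to 63.7 CPM in 130 mM glucose and 20.6 to 86.8 CPM in regular medium. Fast muscle, neuron, macrophage and red cell sums did not overlap between the glucose doses, and their part in these results was not tested.

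The dose comparisons were repeated in amputated larvae. At 3 h in 222 mM glucose against regular medium 8 of the 10 members rose and none fell, against 23.9% of all tested genes that passed and 11% that passed as higher. The median change was 1.33 on the log2 scale for the members and 0.01 for all tested genes. The groups did not overlap for 3 members, fosl2, jun and junbb, against 28.9% of tested genes. The members that did not pass were fosab (1.52 ± 0.59, adjusted p = 0.0626) and fosb (0.98 ± 0.79, adjusted p = 0.387).

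Of the Fos genes, fosl2 had 61.7, 54.7 and 36.4 CPM in 222 mM glucose and 34.9, 17.6 and 16.8 CPM in regular medium, without overlap, and rose by 1.14 ± 0.23 (2.21-fold, adjusted p = 0.000839). The fos duplicate fosaa had 16.3, 13.2 and 2.64 CPM in 222 mM glucose and 4.72, 1.78 and 1.23 CPM in regular medium. Its groups overlapped through replicate 3 of 222 mM glucose and replicate 1 of regular medium, and it rose by 2.06 ± 0.47 (4.16-fold, adjusted p = 0.00221). For fosl1a, with 153.5, 93.4 and 34.6 CPM in 222 mM glucose and 38.2, 6.30 and 7.59 CPM in regular medium, the rise was 2.44 ± 0.83 (5.41-fold, adjusted p = 0.0353).

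All 4 Jun genes rose in this comparison. For junbb the values were 176, 110.2 and 79.8 CPM in 222 mM glucose and 79.3, 29.3 and 26.0 CPM in regular medium, a rise of 1.44 ± 0.30 (2.72-fold, adjusted p = 0.00108). For jun they were 123.1, 90.6 and 128 CPM against 59.8, 68.4 and 62.7 CPM, a rise of 0.84 ± 0.21 (1.79-fold, adjusted p = 0.00399). Replicate 3 in 222 mM glucose, low for the other members, was the highest for jun. The rises of junba (1.21 ± 0.32, 2.31-fold, adjusted p = 0.0076) and jund (0.62 ± 0.21, 1.54-fold, adjusted p = 0.0349) came with overlapping groups. So did that of atf3, with 127, 104.6 and 52.0 CPM in 222 mM glucose and 59.4, 13.2 and 16.6 CPM in regular medium (1.67 ± 0.54, 3.18-fold, adjusted p = 0.0263).

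The calls of fosaa, fosl2, jun and junbb held with each of the 6 libraries left out in turn. Those of atf3, fosl1a and jund were lost without regular medium replicate 2 or 3 or without 222 mM replicate 1 or 2, at adjusted p of 0.065 to 0.146 for atf3 and fosl1a and 0.099 to 0.211 for jund. That of junba was lost without regular medium replicate 2 (0.97, adjusted p = 0.052) or 3 (0.89, 0.052) or 222 mM replicate 1 (0.80, 0.09). Without regular medium replicate 1 all 10 members passed, with changes of 2.83 for fosaa, 3.02 for fosab, 3.75 for fosl1a, 2.01 for junba and 2.66 for atf3. Without 222 mM replicate 3 it was 9, all but fosb. The share of all tested genes that passed in these fits with a library left out is not given here. With the spread estimated from the compared libraries alone, 1 member passed, jun. The summed neutrophil markers were 2055 to 2661 CPM in 222 mM glucose and 1094 to 2006 CPM in regular medium at 3 h, the epidermal markers 8408 to 10170 CPM in 222 mM glucose and 10680 to 18320 CPM in regular medium, and the neuron markers 728.2 to 826.8 CPM in 222 mM glucose and 593.1 to 655 CPM in regular medium. Their part in the result was not tested.

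**Figure D3:**
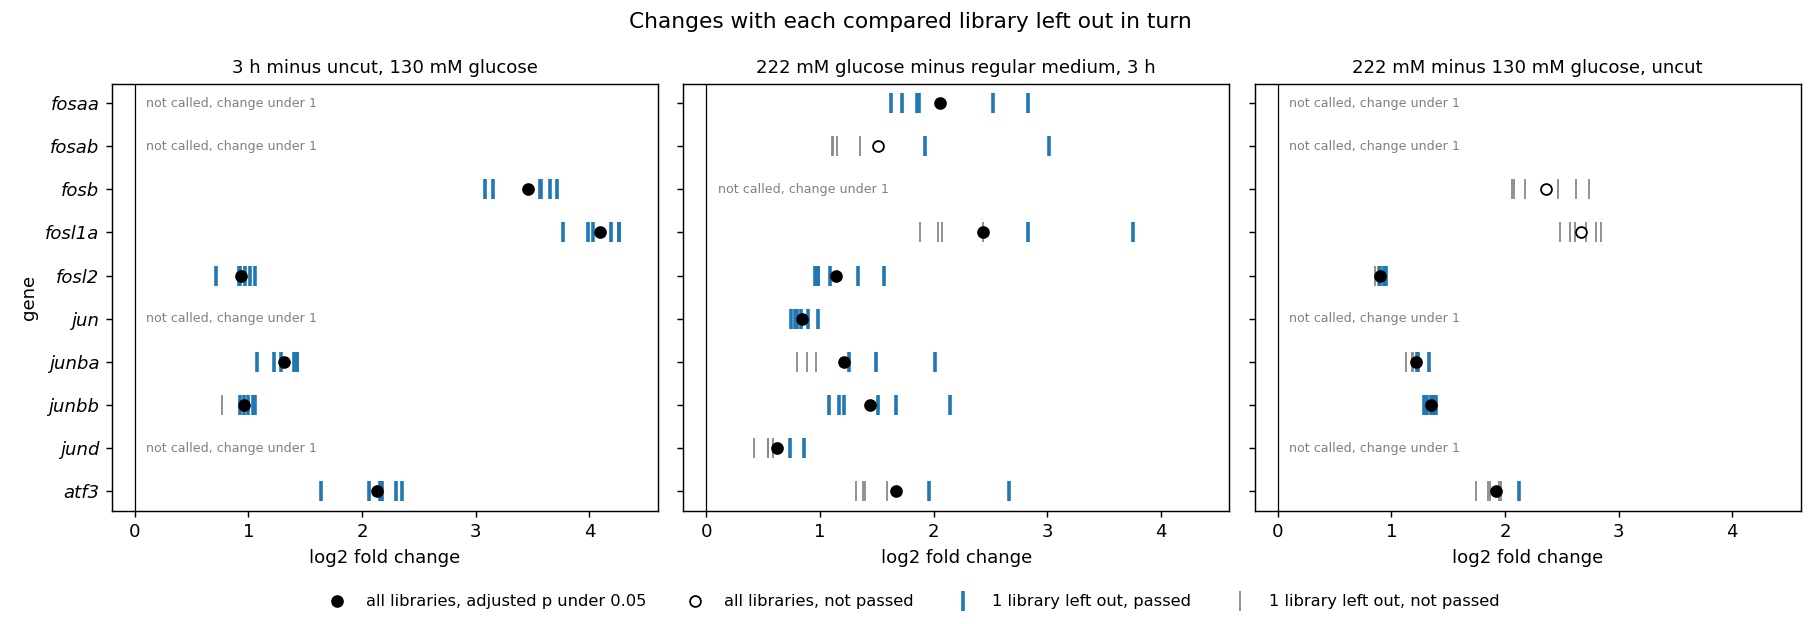
Log2 fold change (x axis) of the members (rows) in 3 comparisons, from all libraries (circles, filled where the adjusted p is under 0.05) and with each of the 6 compared libraries left out in turn (ticks, blue where passed). Ticks of fosl1a at 3 h in 222 mM glucose against regular medium spread from 1.89 to 3.75, while those of junbb between the uncut groups lie from 1.29 to 1.39.

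In 130 mM glucose against regular medium at 3 h no member passed in edgeR, against 9.5% of tested genes, 6 had an unadjusted p under 0.05, and all 10 changes were positive. DESeq2 called 1 member, junbb, and limma on log2(FPKM + 1) called 4. Without regular medium replicate 1 the count was 8, all higher, with fosl1a at 3.47 (adjusted p = 0.012). The 9.5% belongs to the fit of all libraries, and the shares of all tested genes in these other fits are not given here. Between the glucose doses at 3 h 1 member rose, against 12.8% of tested genes (5.75% as higher). It was jun, with 123.1, 90.6 and 128 CPM in 222 mM glucose and 80.6, 54.4 and 56.6 CPM in 130 mM glucose (0.83 ± 0.21, 1.78-fold, adjusted p = 0.00837). It did not pass without 130 mM replicate 2 (0.73, adjusted p = 0.057), and without 222 mM replicate 3 there were 4 calls, fosaa, fosl2, jun and junbb. The red cell markers summed to 78.1 to 107.6 CPM in 222 mM glucose and 130.5 to 164.4 CPM in 130 mM glucose, and the neuron markers to 728.2 to 826.8 CPM in 222 mM glucose and 585.4 to 688.4 CPM in 130 mM glucose. Their part in the result was not tested. The other 9 members had a higher mean in 222 mM glucose without passing, among them fosl1a (0.29 ± 0.79, adjusted p = 0.845).

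At 24 h in 222 mM glucose 2 members were higher than in regular medium, jun and junbb, while 34.1% of all tested genes passed (15.7% as higher). For jun the values were 82.6, 96.3 and 107.7 CPM in 222 mM glucose and 61.3, 54.1 and 67.3 CPM in regular medium, a rise of 0.65 ± 0.21 (1.57-fold, adjusted p = 0.0147). For junbb they were 68.9, 68.1 and 88.9 CPM and 41.2, 36.5 and 54.9 CPM, a rise of 0.77 ± 0.30 (1.7-fold, adjusted p = 0.0444). The groups did not overlap for 9 of 10 members, all but junba, against 53.7% of tested genes. The call of jun was lost without regular medium replicate 2 (0.57, adjusted p = 0.068) or 222 mM replicate 3 (0.56, 0.07), and that of junbb held only without regular medium replicate 3. Against 130 mM glucose at 24 h, junba rose by 1.00 ± 0.32 (2-fold, adjusted p = 0.0234) and junbb by 0.87 ± 0.30 (1.83-fold, adjusted p = 0.0321), and 24.3% of tested genes passed (10.9% as higher). The values of junba were 50.7, 42.8 and 54.7 CPM in 222 mM glucose and 27.0, 22.0 and 25.2 CPM in 130 mM glucose. Its call was lost without 130 mM replicate 2 or 3 or 222 mM replicate 1 or 3 (adjusted p = 0.052 to 0.087), and that of junbb without 130 mM replicate 2 or 3 or 222 mM replicate 3 (0.084 to 0.132). Without 130 mM replicate 1, which stood apart, 5 members passed as higher, fosl2, jun, junba, junbb and atf3. The share of all tested genes in that fit is not given here. At 24 h the epidermal markers summed to 5894 to 7407 CPM in 222 mM glucose, 11950 to 17740 CPM in 130 mM glucose and 12870 to 15390 CPM in regular medium. The macrophage markers summed to 59.6 to 70.1 CPM in 222 mM glucose, 74.9 to 112.6 CPM in 130 mM glucose and 125.9 to 133.2 CPM in regular medium, and fast muscle markers to 8493 to 9831 CPM in 222 mM glucose, 11400 to 12080 CPM in 130 mM glucose and 10750 to 12630 CPM in regular medium. Neutrophil markers summed to 2122 to 3254 CPM in 222 mM glucose, 1683 to 2028 CPM in 130 mM glucose and 1734 to 2375 CPM in regular medium, and red cell markers to 48.3 to 63.8 CPM in 222 mM glucose, 50.7 to 53.3 CPM in 130 mM glucose and 27.7 to 29.9 CPM in regular medium. The part of these cell types in the results was not tested.

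In 130 mM glucose against regular medium no member passed at 24 h in edgeR (7.03% of tested genes, 3 members at an unadjusted p under 0.05) or limma, and DESeq2 called 1. At 48 h 1 member, fosab, was lower in 130 mM glucose than in regular medium, against 19.9% of tested genes (10.9% as lower). It had 9.49, 12.5 and 14.7 CPM in 130 mM glucose and 43.5, 34.2 and 44.0 CPM in regular medium. Although the groups lay apart, the fall of 1.73 ± 0.60 (3.31-fold, adjusted p = 0.0421) was lost with any of the 6 libraries left out (adjusted p = 0.061 to 0.134). The sums of all 6 marker lists lay apart between these groups, among them 15850 to 16980 CPM in 130 mM glucose and 8587 to 10290 CPM in regular medium for the epidermis, and 1805 to 1858 CPM in 130 mM glucose and 590.7 to 729.8 CPM in regular medium for neutrophils, and their part in the result was not tested. At 48 h in 222 mM glucose no member passed in edgeR, DESeq2 or limma, against regular medium (16.5% of tested genes, 0 members at an unadjusted p under 0.05) or 130 mM glucose (15.8%, 2 members). With the spread from the compared libraries alone 4 and 7 members passed in these 2 comparisons. The shares above are those of the fit of all libraries, and those of all tested genes in these narrower fits are not given here.

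From 3 to 24 h after amputation all calls were lower. The larvae in regular medium had 1, fosb, against 18.5% of tested genes and 9.55% as lower (-3.25 ± 0.88, 9.53-fold lower, adjusted p = 0.0113). That fall rested on replicate 1 at 3 h, without which it was -0.64 (adjusted p = 0.588), and was also lost without 24 h replicate 2 (-3.05, 0.058). Without that 3 h library 1 member passed as higher, junba (1.30, adjusted p = 0.000862), which had not passed with it (0.49, adjusted p = 0.301). In regular medium macrophage markers summed to 125.9 to 133.2 CPM at 24 h and 67.4 to 80.9 CPM at 3 h. Red cell markers summed to 27.7 to 29.95 CPM at 24 h and 101.6 to 164.9 CPM at 3 h. The part of both in these results was not tested. In 130 mM glucose 4 members fell, against 24.8% of tested genes (13.6% as lower). They were fosl1a (-2.36 ± 0.83, adjusted p = 0.0397), fosl2 (-0.74 ± 0.23, 0.0204), junba (-1.17 ± 0.32, 0.00919) and junbb (-0.89 ± 0.30, 0.0286). Only the call of junba held in 5 of 6 fits with a library left out, and all 4 were lost without 3 h replicate 1 (adjusted p = 0.057 for junba to 0.143 for fosl2). Those of fosl2 and junbb were lost also without 24 h replicate 2 or 3 (0.082 to 0.116), and that of fosl1a with any library but 24 h replicate 1 left out (0.051 to 0.149). Without 24 h replicate 1, which stood apart, the fall of fosl1a was 3.62 and atf3 passed as a 5th member. The marker sums of these groups lay apart for all lists but neutrophils, with red cells at 50.7 to 53.3 CPM at 24 h and 130.5 to 164.4 CPM at 3 h, and their part in the result was not tested.

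Between 3 and 24 h in 222 mM glucose 3 members fell, against 7.82% of tested genes (4.75% as lower). They were fosaa (-1.79 ± 0.46, adjusted p = 0.0152), fosb (-2.81 ± 0.85, 0.0406) and fosl2 (-0.79 ± 0.23, 0.0323). The call of fosaa was lost in 4 of 6 fits with a library left out (without 3 h replicate 1 or 2, or 24 h replicate 1 or 3, adjusted p = 0.061 to 0.087), and those of fosb and fosl2 in 5, all but that without 3 h replicate 3 (0.091 to 0.155 and 0.053 to 0.131). Without that library 4 members fell, these 3 and jund. Epidermal markers summed to 5894 to 7407 CPM at 24 h and 8408 to 10170 CPM at 3 h. Red cell markers summed to 48.3 to 63.8 CPM at 24 h and 78.1 to 107.6 CPM at 3 h. The part of both in the result was not tested. From 24 to 48 h no member passed in edgeR in regular medium (9.53% of tested genes, 1 member at an unadjusted p under 0.05) or in 130 mM glucose (2.87%, 0 members). DESeq2 and limma each called 1 member in regular medium and 0 in 130 mM glucose. For 222 mM glucose junbb fell, with 38.1, 48.7 and 40.1 CPM at 48 h and 68.9, 68.1 and 88.9 CPM at 24 h (-0.83 ± 0.30, adjusted p = 0.0392), against 24.8% of tested genes (11.9% as lower), and the call was lost with any library left out (0.051 to 0.144). The marker sums of these groups lay apart for all lists but neurons. Fast muscle was at 16450 to 18140 CPM at 48 h and 8493 to 9831 CPM at 24 h, and neutrophils at 1169 to 1223 and 2122 to 3254 CPM. Their part in the result was not tested.

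Whether the 3 responses to amputation differed between media was tested with an F test on 3 df. Against regular medium the responses in 130 mM glucose differed for 4 members, fosab (adjusted p = 0.0304), fosl2 (0.0392), junba (0.0292) and junbb (0.0446), and 17.9% of all tested genes passed. For 222 mM glucose they differed for 1, junbb (adjusted p = 0.0359), against 15.3% of tested genes. Between the glucose doses none differed in edgeR (0 at an unadjusted p under 0.05), DESeq2 or limma, against 24.4% of tested genes. Every medium has a single uncut group, on which its 3 responses rest. Without regular medium replicate 1 at 3 h, 8 members differed in 130 mM and 6 in 222 mM glucose, and without uncut replicate 3 of regular medium 7 and 3. Without 222 mM replicate 3 at 3 h, 5 differed from regular medium and 1, fosaa, from 130 mM glucose. The shares of all tested genes in these fits with a library left out are not given here, so the counts do not show whether members moved more than other genes. At 3 h the change of junbb from the uncut level was 0.29 in 222 mM glucose, 0.96 in 130 mM glucose and -0.43 in regular medium, and at 48 h it was -1.24, -0.28 and -0.28.

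Per length, in FPKM (fragments scaled to transcript length and library size), the make-up of the Fos pool differed between groups. The summed FPKM of the 5 Fos genes had a median of 43.8 at 3 h in 130 mM glucose and 22.7 in its uncut larvae. It was 74.98 at 3 h in 222 mM glucose and 41.8 in its uncut larvae, and 11.4 at 3 h in regular medium and 61.9 in its uncut larvae. The sums did not overlap between 3 h and uncut in 130 mM glucose. They did in 222 mM glucose (26.45 to 105.1 and 23.25 to 46.52) and in regular medium (10.73 to 47.9 and 25.88 to 63.46). In regular medium fosab made up a median 33.3% of the Fos sum at 3 h and 70.7% in uncut larvae. The share of fosl1a was 31% at 3 h and 4.45% in uncut larvae in 130 mM glucose, 24.9% and 12.2% in 222 mM glucose, and 15.1% and 3.5% in regular medium. Its libraries did not overlap between 3 h and uncut in 130 mM glucose (27.8 to 31.7% and 3.99 to 5.08%) or in regular medium (12.7 to 15.3% and 2.44 to 6.02%), but did in 222 mM glucose (23.2 to 29.4% and 10.8 to 29.3%).

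Jun transcripts outnumbered Fos transcripts per length in every group by their median sums, with 134.9 against 74.98 FPKM at 3 h in 222 mM glucose as the highest of both. At 3 h in 130 mM glucose the median share of the Jun sum was 24.9% for jun, 27.4% for junba and 41.2% for junbb, and in uncut larvae of that medium they were 41.0%, 17.1% and 33.9%. In 222 mM glucose at 48 h they were 41.6%, 22.3% and 27.6%, and in uncut larvae 25.6%, 20.2% and 44.9%. These shares are descriptions, with no test, and shares of fosab carry the doubt over its overlapping genes.

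**Figure D4:**
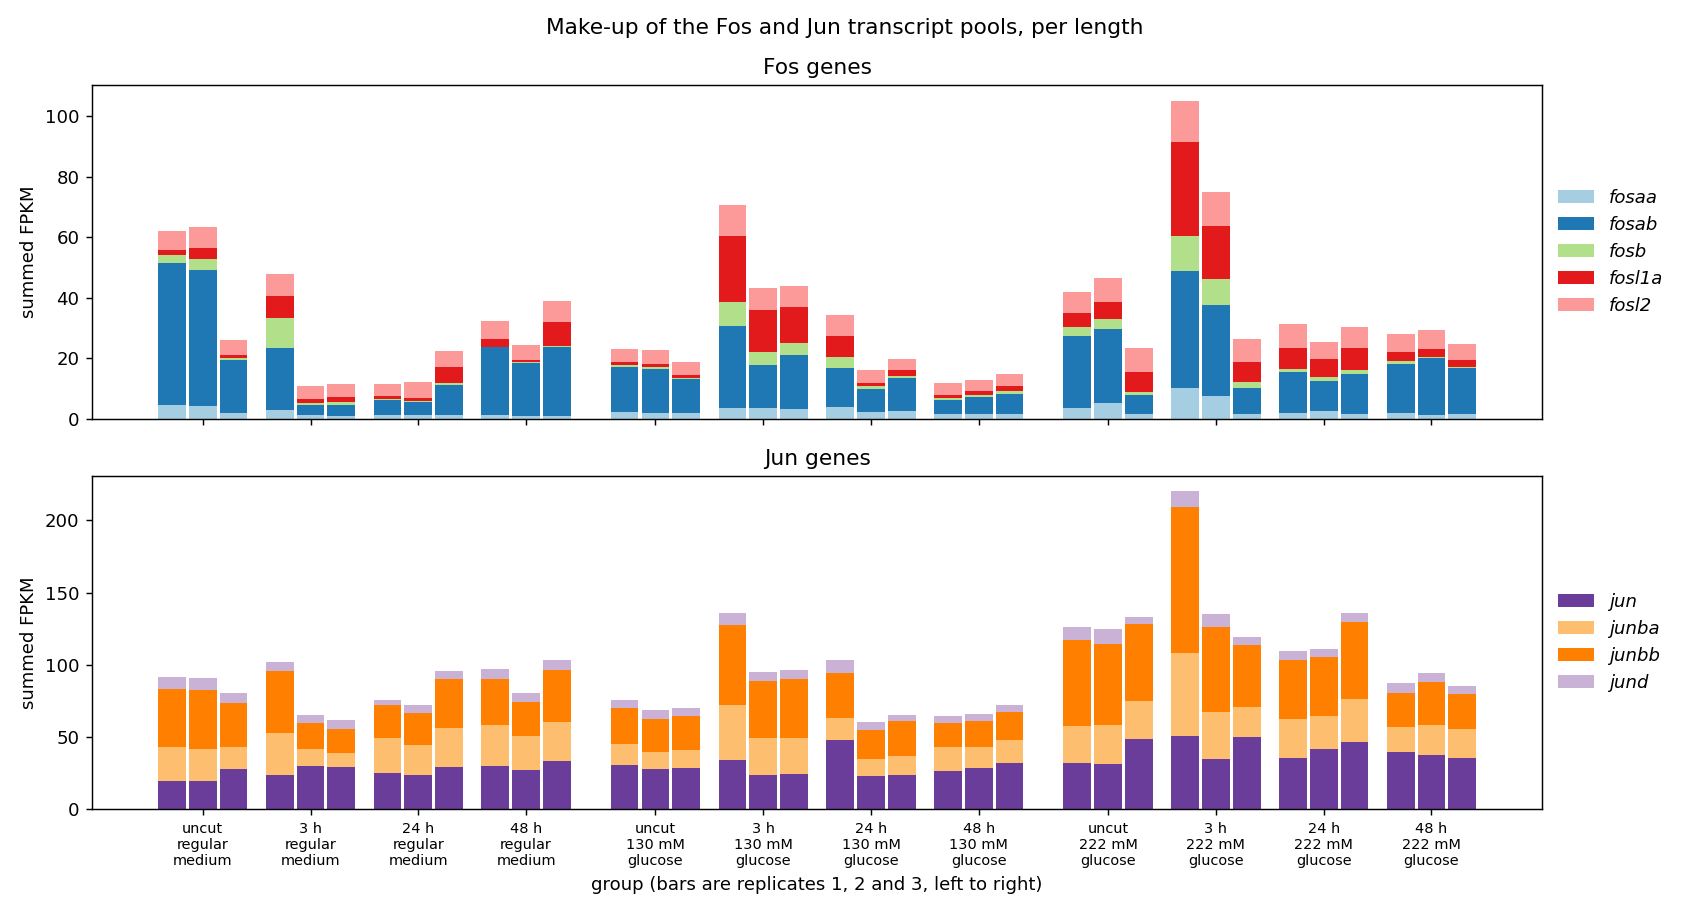
Summed FPKM of the Fos genes (top) and the Jun genes (bottom), stacked by gene, with 1 bar per library and groups in order of medium and time. The red segment, fosl1a, widens at 3 h in both glucose media, to median shares of 31% and 24.9% of the Fos sum, while fosab, dark blue, fills a median 70.7% in uncut larvae of regular medium.

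Over the 36 libraries, which share groups, the members most alike in log2 CPM were fosl2 and junbb (Pearson r = 0.92), fosl1a and atf3 (0.89) and fosl1a and fosl2 (0.88). The least alike were jun and fosab (0.00) and jun and fosaa (0.12). Within groups, by deviations from the group means, junba and junbb had r = 0.94 and fosab and fosb 0.90, while jun and fosaa had -0.27. Within groups jun had the lowest correlations, while single libraries were high or low for most other members together. Correlations are given as descriptions, since libraries of a group and their scaling are shared.

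**Figure D5:**
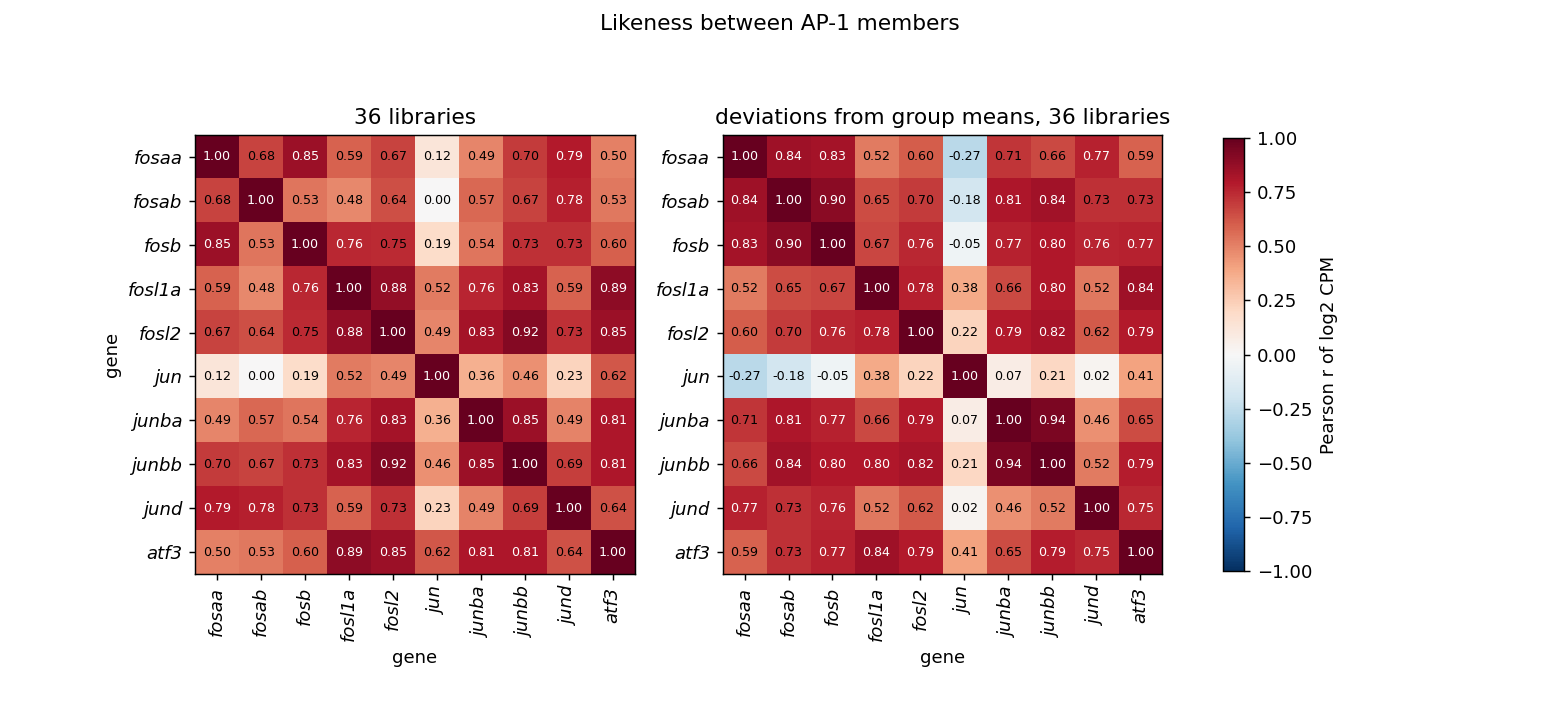
Pearson r of log2 CPM between members over 36 libraries (left) and of deviations from group means (right). The row of jun runs from 0.00 with fosab to 0.62 with atf3 on the left. On the right it runs from -0.27 with fosaa to 0.405 with atf3, and the junb pair reaches 0.94 there.

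Among genes other than the 10 members, with at least 5 FPKM in their highest group, those whose pattern over the 36 libraries was most like each member's were found by Pearson r of log2 CPM. They were adgrb1b for fosaa (0.90), the salt-inducible kinase gene sik1 (0.88) and the zinc finger gene egr1 (0.87) for fosab, and the phosphate transporter gene slc20a1b for fosb (0.93). The serine palmitoyltransferase gene sptlc2b was the most alike for fosl1a (0.93), fosl2 (0.92) and atf3 (0.89). The chemokine gene cxcl18b was so for jun (0.82), ets2 and SBNO2 for junba (0.84 each), trib3 for junbb (0.91) and the phosphatase gene dusp2 for jund (0.84). The bZIP gene cebpb was the next after these for fosl2 (0.91) and junbb (0.89).

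Other genes of the pathway were taken from 5 lists, which were chosen with earlier results of these data known. At 3 h in 130 mM glucose 16 of the 33 tested genes known in mammals as AP-1 targets rose and 2 fell against uncut larvae, with a median log2 change of 0.64. Among them were the growth factor gene hbegfa (1.07 ± 0.19, adjusted p = 9.5e-05) and the matrix metalloproteinase genes mmp9 (1.69 ± 0.42, 0.00296) and mmp13a (1.05 ± 0.35, 0.0174), while the filament gene vim fell (-0.90 ± 0.14, 2.27e-05). Of 38 other immediate early genes 10 rose and 3 fell. The zinc finger genes klf11b (2.05 ± 0.43, 0.000724) and egr3 (1.74 ± 0.38, 0.000792) rose and the nuclear receptor gene nr4a2a fell (-1.11 ± 0.22, 0.00038). For egr1 the levels were 150.9 ± 55.2 CPM at 3 h and 134 ± 12.8 CPM in uncut larvae (SD, n = 3 each, adjusted p = 0.749).

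Of the 32 other bZIP genes 9 rose and 6 fell at 3 h in 130 mM glucose, with the cyclic AMP responsive element modulator genes crema (1.19 ± 0.17, 1.19e-05) and cremb (2.48 ± 0.40, 4.69e-05) among those that rose. Of 34 kinases and factors upstream of AP-1 10 rose and 2 fell, among them the p38 kinase gene mapk14a (0.59 ± 0.13, 0.000607). Of 23 MAPK phosphatase and feedback genes 4 rose and 2 fell, among them the ERK phosphatase gene dusp5 (1.78 ± 0.49, 0.00566) and spry2 (-0.65 ± 0.12, 0.000193). All these genes kept their calls with each library left out, except mmp13a, which was lost in 2 of the 6 fits. The medians of these lists were 0.44 (immediate early), 0.15 (bZIP), 0.14 (upstream) and -0.02 (feedback), beside 0.01 over all tested genes. The share that passed was 54.5% of the targets, 46.9% of the bZIP genes, 35.3% of the upstream genes, 34.2% of the immediate early genes and 26.1% of the feedback genes, beside 38.2% of all tested genes, so the last 3 were below that of all genes.

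In regular medium at 3 h 27.3% of the targets and 23.7% of the immediate early genes passed, beside 15.1% of all tested genes. The other lists were below that share, with 6.25% of the other bZIP genes, 5.88% of the upstream genes and 8.7% of the feedback genes. Of the targets 7 rose and 2 fell, with mmp13a at 1.53 ± 0.36 (adjusted p = 0.00494) and mmp9 at 1.49 ± 0.42 (0.0186), while of the immediate early genes 3 rose and 6 fell. Those that fell included ier2b (-1.54 ± 0.27, 0.000392), sik1 (-1.36 ± 0.24, 0.000415) and egr1 (-1.47 ± 0.38, 0.0104). At 3 h in 222 mM glucose 3 of 33 targets rose and none fell (9.09%, beside 0.895% of all tested genes). No gene of the immediate early, other bZIP, upstream or feedback lists passed there. The calls of mmp9 and egr1 in regular medium were lost in 3 and 2 of the 6 fits with a library left out.

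Between 222 mM glucose and regular medium at 3 h 23.9% of all tested genes passed, 11% as higher. Of the immediate early genes 19 rose and 1 fell (median 0.74), of the feedback genes 11 and 2 (0.56), of the targets 17 and 2 (0.73), of the other bZIP genes 13 and 0 (0.26) and of the upstream genes 4 and 2 (0.01), beside a median of 0.01 over all tested genes. The share that passed was 17.6% of the upstream genes, below that of all genes, and 40.6 to 57.6% in the other 4 lists. Examples are the phosphatase gene dusp4 (1.48 ± 0.23, adjusted p = 4.43e-05), the neuronal factor gene npas4a (2.94 ± 0.58, 0.000861), the stress factor gene atf4b (0.99 ± 0.15, 2.02e-05), the growth factor gene vegfaa (1.00 ± 0.20, 0.000648) and mmp9 (1.75 ± 0.42, 0.00411). Between the uncut larvae of 222 mM and 130 mM glucose 13 of 33 targets rose and none fell (39.4%, beside 7.63% of all tested genes), among them timp2b (2.12 ± 0.33, 0.000323) and the fibronectin gene fn1b (1.93 ± 0.32, 0.000589), but 1 of 38 immediate early genes (2.63%). Between these uncut groups 12.5% of the other bZIP genes, 5.88% of the upstream genes and 8.7% of the feedback genes passed. The genes named in these 2 comparisons kept their calls with each library left out. With the spread estimated from the compared libraries alone, 736 of all tested genes passed between 222 mM glucose and regular medium at 3 h, against 4800 in the fit of all libraries.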

How the data were processed

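Values come from 1 table of 36 libraries from whole zebrafish larvae. Per the submitters' processing notes, HISAT, StringTie, edgeR and GRCz11 were used. The authors deposited counts per gene, whole numbers that are not normalized, and FPKM values, which are scaled to transcript length and mapped fragments. The strand setting of the counting is not given in the sources used here. The main test, fitted to the counts of all 36 libraries with 1 mean per group, was the quasi-likelihood F test of edgeR 4.0.16 in R 4.3.3, after TMM scaling and with robust dispersions. It covered the 20120 genes that reached 1 FPKM or more in 3 or more libraries. Adjustment for multiple testing followed Benjamini and Hochberg over these genes within each of 27 comparisons of 2 groups and 3 F tests. A gene passed at an adjusted p under 0.05, and rose or fell by the sign of its change. Standard errors are the log2 change divided by the square root of F. The common biological coefficient of variation was 0.203. Log2 CPM for correlations used a prior count of 2. The members and lists were chosen with earlier results of these data known. All members are named, and of each list at most the 4 genes with the lowest adjusted p that passed in a comparison, or mmp9, mmp13a, il11a, egr1, dusp1 and ier2a, and up to 2 genes most alike per member. Alternatives used limma 3.58.1 on log2(FPKM + 0.1) and log2(FPKM + 1), DESeq2 1.42.0, another scaling, no filter, other sets of libraries and a replicate block. Same-numbered replicates deviated together, with every r over 0.1, only between 3 h and uncut larvae in 222 mM glucose. Markers of other cell types are also expressed elsewhere in the larva. The edgeR script was tested on simulated data. Some genes of the lists are counted but not reported by name here.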

Additional observations from a re-analysis of the deposited data

Results flagged for a closer look

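For 5 results the F test found that a member's 3 responses to amputation differed between media. Between 130 mM glucose and regular medium these were fosab (adjusted p = 0.0304), fosl2 (0.0392), junba (0.0292) and junbb (0.0446), and between 222 mM glucose and regular medium junbb (0.0359). With each of 24 libraries left out in turn, the calls held in 17 fits for fosab, 11 for fosl2, 21 for junba and 7 for junbb in 130 mM glucose, and in 17 for junbb in 222 mM glucose. Regular medium replicates 2 and 3 at 3 h and replicate 1 at 3 h of the glucose medium were each among those whose omission ended the calls of fosl2, junba and both of junbb (adjusted p = 0.060 to 0.128).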

How the results depend on the processing

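Members passed in 6 of 30 tests of glucose in uncut larvae, 6 of amputation in regular medium, 6 in 130 mM and 1 in 222 mM glucose, 14 of 90 of glucose after amputation, 9 of 60 of steps in time and 5 of 30 F tests. With each library left out in turn these counts ran from 3 to 7, 1 to 9, 5 to 6, 1 to 5, 10 to 24, 5 to 10 and 1 to 14. Without the 4 libraries that stood apart they were 18 (uncut), 17 (regular medium), 9 (222 mM), 44 (after amputation), 19 (steps) and 23 (F tests). With only the compared libraries in the fit they were 1 (regular medium), 13 (130 mM), 5 (222 mM) and 30 (after amputation). With the replicate block they were 2 (222 mM) and 9 (F tests), and with the block and only the compared libraries 0 (regular medium), 14 (130 mM), 5 (222 mM), 32 (after amputation), 15 (steps) and 8 (F tests). Same-numbered libraries deviated together in 1 comparison, 3 h in 222 mM glucose, and the labels do not say that they were paired. DESeq2 gave 3 (222 mM) and 11 (F tests), the criterion of the series text, an unadjusted p under 0.05 and a log2 change over 1, gave 4 (222 mM), and no filter 2 and limma on log2(FPKM + 1) 9 of the F tests. Other counts stayed within 1.5 times, and the cause of the shifts was not tested. These counts have no share of all tested genes beside them, so they do not show whether the members shifted more than other genes. Among changes that had passed or were at least 1 on the log2 scale, the direction turned with a library left out for fosl1a in 130 mM glucose against regular medium at 48 h, which had not passed (-1.14, from -1.63 to 0.005 with a library left out, the upper end without regular medium replicate 3 at 48 h). Smaller changes of fosb, fosl1a and atf3 at 3 h in regular medium also turned, without replicate 1 at 3 h, to -1.74, -0.48 and -0.60. Total counts lay within 1.41 times of each other.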
